A study of Mus musculus with 5 samples.

Results

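The genes described here are those whose promoters lie more than 20 kb apart on 1 chromosome, so that a single gene is read by several baits in a promoter capture experiment. They were found from the bait names on chromosomes 1 to 9. Each name lists the transcripts that start in a promoter bin, and a gene was kept where its symbol occurred in at least 2 bins whose start positions differed by more than 20 kb. This gave 875 genes of 8390 with a promoter bin, and 2467 of the 11063 promoter bins of those chromosomes. The experiment was capture Hi-C, in which crosslinked chromatin is cut with DpnII and religated and the ligation products that contain chosen promoters are enriched. It compared the supporting cells of the mouse gonad in the male and in the female at E13.5. There were 3 libraries of Sertoli cells sorted from Sox9IRES-GFP gonads and 2 of pre-granulosa cells sorted from Enh8-mCherry gonads, each made from about 100000 cells, and both groups therefore carry a fluorescent reporter. The files hold no RNA level, so the markers of Sertoli and pre-granulosa cells could not be used to check the sorts.

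Every contact between a promoter bin and another bin had 1 CHiCAGO score for each cell type. This score rises as the number of read pairs exceeds what is usual at that distance, and a contact counts here as called in the cell type where it reaches 5. The libraries of a cell type stand behind 1 column, so no score has a replicate error, no difference between the cell types could be tested, and the depth behind each score is unknown. The intervals given below are 95% Wilson intervals for shares, or intervals for medians, and cover counting error only. Promoter bins and pairs share contacts with their neighbours and are not independent. A contact is listed only where at least 1 cell type reached 5, and a promoter with no listed contact is not seen.

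Many mammalian genes have alternative promoters, from which transcripts with different first exons and often different protein starts are made. The upstream promoter usually gives the longest protein, and an internal promoter gives a shorter form that can lack a domain or carry another first exon. Which promoter is used often depends on the tissue. In the nucleus, promoters can contact enhancers and other promoters by looping, and alternative promoters of a gene can therefore either share the same distal contacts or have contacts of their own.

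The sequences of 4 pairs of alternative promoters are shown because their contacts carry the findings below. RefSeq starts of the same gene (GRCm38.p6) lay in both bins of each pair, and 300 bases are given for each, 250 before the start and 50 after it, on the strand of the gene, with each CG dinucleotide in capitals. Mecom was chosen for its contact over about 496 kb. Limch1 and Creb5 have outer promoters over 200 kb apart with a listed contact between them. Pparg has a contact called in pre-granulosa cells only. All 4 were picked for display after their values had been seen.
Mecom upstream, chr3:30509710-30510009, minus strand: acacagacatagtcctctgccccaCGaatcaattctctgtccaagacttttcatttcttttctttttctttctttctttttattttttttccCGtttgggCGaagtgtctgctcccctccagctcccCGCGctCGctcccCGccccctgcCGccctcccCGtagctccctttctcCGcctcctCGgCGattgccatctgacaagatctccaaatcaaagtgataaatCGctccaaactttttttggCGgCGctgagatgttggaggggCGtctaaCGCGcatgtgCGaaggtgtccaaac
Mecom downstream, chr3:30013155-30013454, minus strand: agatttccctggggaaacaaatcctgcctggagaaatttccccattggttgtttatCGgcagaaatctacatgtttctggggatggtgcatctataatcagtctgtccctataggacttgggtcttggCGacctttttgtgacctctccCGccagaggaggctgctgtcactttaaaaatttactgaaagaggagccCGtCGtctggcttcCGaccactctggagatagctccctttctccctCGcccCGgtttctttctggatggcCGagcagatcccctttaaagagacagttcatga
Limch1 upstream, chr5:66745639-66745938, plus strand: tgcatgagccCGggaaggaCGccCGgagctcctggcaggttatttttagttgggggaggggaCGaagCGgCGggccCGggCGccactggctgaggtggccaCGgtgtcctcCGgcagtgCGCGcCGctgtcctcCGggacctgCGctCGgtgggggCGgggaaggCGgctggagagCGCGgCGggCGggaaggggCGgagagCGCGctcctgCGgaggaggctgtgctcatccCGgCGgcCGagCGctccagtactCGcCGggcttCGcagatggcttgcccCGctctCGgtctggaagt
Limch1 downstream, chr5:66968178-66968477, plus strand: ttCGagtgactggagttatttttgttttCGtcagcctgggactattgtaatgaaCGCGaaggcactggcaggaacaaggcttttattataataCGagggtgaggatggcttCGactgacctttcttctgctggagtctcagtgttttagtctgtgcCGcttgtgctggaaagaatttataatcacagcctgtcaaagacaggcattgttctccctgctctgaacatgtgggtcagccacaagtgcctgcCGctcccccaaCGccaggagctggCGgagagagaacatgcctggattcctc
Creb5 upstream, chr6:53287053-53287352, plus strand: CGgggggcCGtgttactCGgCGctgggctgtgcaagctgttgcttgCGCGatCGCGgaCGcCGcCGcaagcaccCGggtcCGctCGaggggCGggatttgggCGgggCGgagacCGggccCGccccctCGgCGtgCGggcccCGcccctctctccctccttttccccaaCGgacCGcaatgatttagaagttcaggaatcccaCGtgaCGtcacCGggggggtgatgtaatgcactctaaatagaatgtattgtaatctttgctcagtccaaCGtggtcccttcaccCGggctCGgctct
Creb5 downstream, chr6:53573124-53573423, plus strand: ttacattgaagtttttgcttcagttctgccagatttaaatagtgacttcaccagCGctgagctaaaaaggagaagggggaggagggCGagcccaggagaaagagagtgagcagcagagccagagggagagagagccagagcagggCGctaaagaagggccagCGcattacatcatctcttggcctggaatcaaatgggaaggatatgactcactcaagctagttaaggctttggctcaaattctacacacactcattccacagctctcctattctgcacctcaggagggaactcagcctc
Pparg upstream, chr6:115360894-115361193, plus strand: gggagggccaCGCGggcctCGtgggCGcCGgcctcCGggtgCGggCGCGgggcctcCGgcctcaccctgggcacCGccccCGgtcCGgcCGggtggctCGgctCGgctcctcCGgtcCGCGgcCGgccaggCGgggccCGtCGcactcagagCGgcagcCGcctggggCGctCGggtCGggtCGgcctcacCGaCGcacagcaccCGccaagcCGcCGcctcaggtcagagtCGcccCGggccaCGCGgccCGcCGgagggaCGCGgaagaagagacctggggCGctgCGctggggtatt
Pparg downstream, chr6:115421816-115422115, plus strand: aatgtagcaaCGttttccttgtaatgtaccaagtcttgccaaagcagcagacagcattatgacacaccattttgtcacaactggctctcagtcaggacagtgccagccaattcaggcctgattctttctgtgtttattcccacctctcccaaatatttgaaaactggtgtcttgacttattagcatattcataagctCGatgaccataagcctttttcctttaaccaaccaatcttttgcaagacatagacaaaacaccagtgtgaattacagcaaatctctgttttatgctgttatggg
The upstream promoter holds more CG in each of these pairs. The counts are 19 and 9 in Mecom, 35 and 10 in Limch1, 31 and 4 in Creb5, and 44 and 2 in Pparg, and CG-rich stretches of this kind are known as CpG islands. A CG occurs at least once in 94.4% of the 18612 RefSeq promoter windows of chromosomes 1 to 9.

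The separation between the lowest and the highest promoter bin of a gene, called its outer promoters below, had a median of 44.3 kb (42.3 to 48.1) and ran from 20.2 to 1235 kb. It was 20 to 50 kb in 491 genes, 50 to 100 kb in 215, 100 to 200 kb in 115, 200 to 500 kb in 50 and more than 500 kb in 4. Of the 875 genes, 442 had 2 promoter bins, 253 had 3, 116 had 4 and 64 had 5 to 9. Their median length in RefSeq was 82.3 kb over the 866 that matched by symbol, a length that the rule on separation itself favours. An outer bin carried the name of a further gene in 59 of the genes. At the threshold, Nbeal2 (20.2 kb) lay just inside, and Ilkap (19.3 kb) and Clca3a2 (19.0 kb) just outside.

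At the 2467 promoter bins, 12146 cis contacts were listed. Sertoli cells had 9594 calls among them and pre-granulosa cells 6584. Sertoli calls were therefore 1.46 times as many (1.41 to 1.50), against 1.39 (1.37 to 1.42) at the 8596 other promoter bins. Over all listed cis contacts, 78.7% were called in Sertoli cells, 55.9% in pre-granulosa cells and 34.6% in both. Of the contacts of these genes, 33.2% (32.4 to 34.04) were called in both cell types. Fewer of their calls ended in a bin that carries a bait name. That share was 45.2% of Sertoli calls and 49.5% of pre-granulosa calls, against 58.3% and 64.4% at the other bins. The median distance of a call was 47.4 kb in Sertoli cells and 37.8 kb in pre-granulosa cells, close to the 48.1 and 37.9 kb of the other bins. More Sertoli than pre-granulosa calls were found at 56.1% of the bins (53.6% of all promoter bins), fewer at 24.7% (26.4% of all), and equal numbers at 19.3% (20% of all).

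The outer promoters of a gene contacted each other in 468 of the 875 genes, or 53.5% (50.2 to 56.8). Pairs of promoter bins that share no gene symbol had a listed contact in 50.1% of cases at 20 to 50 kb, 29.7% at 50 to 100 kb, 12.9% at 100 to 200 kb and 1.86% at 200 to 500 kb. Because the pairs within a gene lie nearer to the short end of these classes, the share for different genes was also weighted to the same distances in 18 narrow classes. On that footing 53.6% of 871 pairs within a gene (50.3 to 56.9) and 39.8% of pairs of different genes had a contact. The ratio of the shares rose from 1.19 at 20 to 50 kb to 6.47 at 200 to 500 kb. The share was 63.3% against 53.3% at 20 to 50 kb, 50.2% against 30.6% at 50 to 100 kb, and 33.0% (25.1 to 42.1) against 15.0% at 100 to 200 kb. From 200 to 300 kb, 10 of 33 genes had a contact, 30.3% (17.4 to 47.3) against 4.12%, while from 300 to 500 kb none of 17 had one, with a Wilson upper bound of 18.4%, against 1.10% of pairs of different genes. Pairs of an outer promoter with a promoter of another gene had a contact in 39.98% at the same distances.

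**Figure D1:**
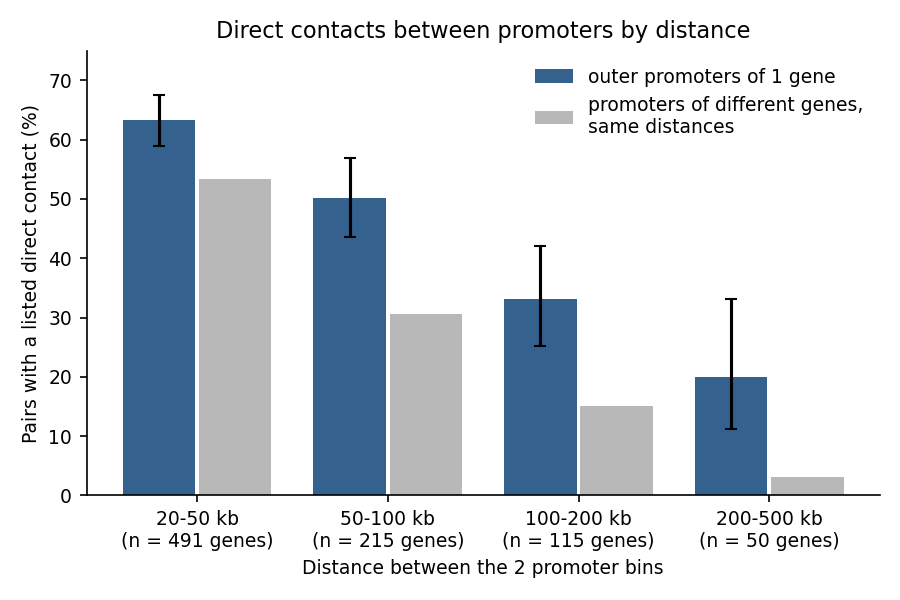
Share of pairs of promoter bins with a listed direct contact (y axis, percent) by the distance between them (x axis). Blue bars are the outer promoters of 1 gene with 95% Wilson intervals, and grey bars are promoters of different genes weighted to the same distances; the blue bar is higher in all 4 classes, from 63.3% against 53.3% at 20 to 50 kb to 10 of 50 genes against 3.09% at 200 to 500 kb.

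A contact between the promoters can itself bring a bin into the table, which would raise the share. With both bins required to have a further listed contact, a rule chosen after the data were seen, 47.2% of 765 pairs within a gene (43.7 to 50.7) had a contact, against 37.7% of pairs of different genes at the same distances. The contact was thus still more frequent within genes under that rule, by a smaller margin. In the deposited table with original instead of extended baits, 1 of 470 genes chosen in the same way (0.213%) had a listed contact between its outer promoters. Of the genes, 433 were found with both kinds of bait, 316 of them with the same outer promoters. Pairs of different genes were not counted with the original baits. The low share can therefore not be called particular to promoters of 1 gene. With the extended baits at a threshold of 7, the share of genes with a contact was 35.2%.

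Of the 468 direct contacts, 227 were called in both cell types (48.5%), 166 in Sertoli cells only and 75 in pre-granulosa cells only. Contacts between different genes were called in both in 36.9% of cases at 20 to 500 kb and in 44.3% at the same distances, which lies within the interval of the share in genes (44.1 to 53.1). The median score, taking the higher of the 2 sides where the contact was read from both baits, was 7.64 (7.12 to 7.93) in Sertoli cells against 5.88 (5.59 to 6.21) in pre-granulosa cells, and it was higher in Sertoli cells in 328 genes (70.1%). The Sertoli excess has the direction of all listed contacts, among which Sertoli calls are more frequent. In 254 of the 468 genes the contact was listed from both sides, which gives a second reading of the same contact. The readings gave the same call in 89.4% for Sertoli cells and 82.7% for pre-granulosa cells.

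The highest score between outer promoters was at Ptpn6, which encodes the phosphatase SHP-1, known from blood cell signalling. Its outer bins, 21.6 kb apart, scored 65.7 in Sertoli cells against 33.9 in pre-granulosa cells. The next were Tulp2, a member of the tubby-like family, with 42.0 and 23.1 over 27.0 kb, and Chd9, a chromatin remodeller, with 38.7 and 31.9 over 124.5 kb. Kifc3, a minus-end kinesin, had 35.8 and 31.3 over 91.2 kb. Hdlbp, which encodes the RNA-binding protein vigilin, had 32.0 and 20.6 over 37.3 kb, and Znrf1, a ubiquitin ligase, had 30.8 and 26.4 over 72.6 kb. All 6 contacts were called in both cell types, were listed from both sides and scored higher in Sertoli cells. The outer bin of Ptpn6 also carries the start of Grcc10, that of Hdlbp the starts of Sept2, and that of Tulp2 those of Gm45808 and Dhdh, so these contacts cannot be assigned to 1 gene of the bin.

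In Chd9 the strongest contacts joined its own promoters. From its most upstream bin, the contact with the Chd9-210 bin, 124.7 kb away between bin centres, scored 30.1 in Sertoli and 24.1 in pre-granulosa cells, and the contact with Chd9-205, 103.7 kb away, scored 16.7 and 7.93. Read from the other 3 promoter bins of Chd9, the contacts with this upstream bin scored 15.2 to 38.7 in Sertoli cells and 10.2 to 31.9 in pre-granulosa cells. The contacts of Chd9 with bins outside its promoters scored at most 7.31 in Sertoli cells against 9.13 in pre-granulosa cells. No bin was called from both outer promoters of Chd9.

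The farthest contact between promoters of a gene was at Mecom, which encodes a zinc finger transcription factor of blood stem cells. Its upstream promoter gives the MDS1-EVI1 form, which carries a PR domain, and its internal promoter gives the EVI1 form without it. The bin with the upstream RefSeq start (chr3:30507252-30512647) and the bin with the internal one (chr3:30011364-30016435), whose sequences are shown above, lie 496.1 kb apart. Read from the upstream bait, the contact scored 25.5 in Sertoli cells against 30.8 in pre-granulosa cells, and read from the internal bait it scored 19.9 and 31.7. Both baits thus called it in both cell types. The bins on either side of the upstream promoter were called from the internal bait too, at 6.77 and 5.95 on the near side and at 18.8 and 18.4 on the far side. The outermost bin of the gene, of Mecom-215, contacted the upstream promoter over 513.0 kb at 10.9 in Sertoli and 3.78 in pre-granulosa cells and was called in Sertoli cells only. The bin of Mecom-203 contacted the internal promoter at 8.67 and 3.72, and that of Mecom-210 at 3.98 and 9.14, so these internal starts differed in the cell type of their call.

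**Figure D2:**
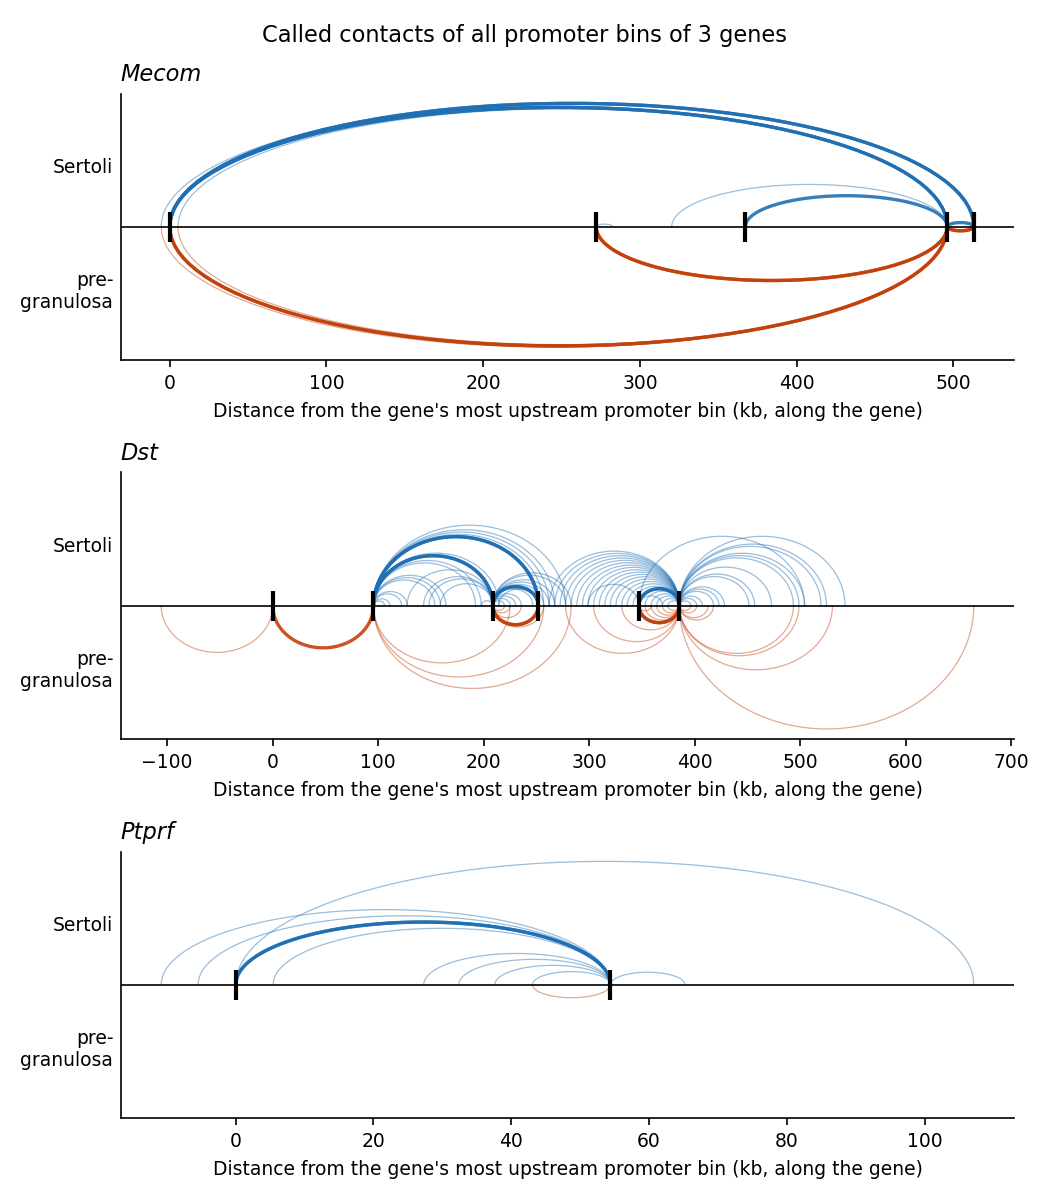
Called contacts of all promoter bins of Mecom, Dst and Ptprf against the distance from the most upstream bin of each gene (x axis, kb along the gene); arcs above the line are calls in Sertoli cells, arcs below are calls in pre-granulosa cells, the height of an arc is the distance it spans, thick arcs join promoters of the same gene and black ticks are its promoter bins. In Mecom the thick arcs over about 496 kb appear on both sides, in Dst the first promoter bin has 2 calls, both in pre-granulosa cells, and in Ptprf the thick arc is drawn for Sertoli cells alone.

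A further 10 genes with outer promoters over 200 kb apart had a contact between them. Limch1, an actin-associated protein, had 16.1 in Sertoli cells against 6.27 in pre-granulosa cells from its upstream bin over 224.0 kb, and 6.24 and 1.22 from the downstream bin, whose sequence is the one with fewer CG above. Camk2d, a calcium-dependent kinase, had 12.8 and 6.72 over 206.0 kb. Sox6, a SOX transcription factor, had 10.8 and 1.45 over 217.4 kb, from a bin that it shares with 1110004F10Rik. Creb5, a transcription factor of the CREB family, had 8.33 and 1.21 over 281.4 kb. Adam12, a membrane metalloprotease, had 7.76 in Sertoli cells over 268.7 kb, with a pre-granulosa score listed at 0.00. These 5 scored higher in Sertoli cells, and Sox6, Creb5 and Adam12 were not called in pre-granulosa cells. Sorbs2 (5.84 and 5.23) and Tenm4 (5.45 and 4.99) lay near the threshold in both. The order was the reverse at Srgap2, a regulator of small GTPases, with 7.01 and 10.6 over 228.7 kb from a bin shared with Fam72a, at the forkhead factor Foxp2, with 4.45 and 7.39 over 298.7 kb, and at Tcf12, an E protein, with 3.04 and 5.82 over 214.4 kb. The last 2 were called in pre-granulosa cells only.

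Among all direct contacts, the largest differences towards Sertoli cells on the asinh scale, which is close to linear for low and to logarithmic for high scores, were at Cfap74, a cilium gene, with 8.98 in Sertoli and 0.102 in pre-granulosa cells, at Adam12 as above, at the peptidase gene Mme with 8.93 and 0.397, at the receptor phosphatase gene Ptprf with 26.8 and 2.12, and at the talin gene Tln2 with 5.82 and 0.0187. Of these, Ptprf stands out by its Sertoli score. Its promoters, 54.2 kb apart, had 9 and 2 calls in Sertoli cells and 1 and 0 in pre-granulosa cells, and the contact was called from each side, at 26.8 and 9.26 in Sertoli cells against 2.12 and 0.462 in pre-granulosa cells.

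Towards pre-granulosa cells the largest differences were at the NAD kinase gene Nadk, listed at 0.00 in Sertoli cells with 8.37 in pre-granulosa cells, at Smarcc1, a subunit of the SWI/SNF remodelling complex, listed at 0.00 with 7.68, at the flippase gene Atp11b with 0.845 and 5.96, at the nucleoporin gene Tpr, whose upstream bin also carries Odr4, with 2.00 and 9.24, and at the acetyltransferase gene Kat14 with 3.04 and 12.1. The contacts of Kat14, Tpr and Atp11b were listed from both sides and called in pre-granulosa cells from each. In Kat14 each of the 9 listed contacts of the 2 bins scored higher in pre-granulosa cells. The Pparg promoters shown above, 60.9 kb apart, belong to the same direction, with 2.29 in Sertoli cells against 6.48 in pre-granulosa cells. Pparg encodes a nuclear receptor of lipid metabolism, and its CG-poor downstream promoter, which makes the PPARG2 form of fat cells, had 9 Sertoli and 10 pre-granulosa calls, against 0 and 1 at the CG-rich upstream promoter. At Mitf, a melanocyte and eye transcription factor also picked after its values were seen, the contact over 187.4 kb was called from each side in both cell types, with scores of 5.91 and 5.79 in Sertoli cells and 6.73 and 7.44 in pre-granulosa cells.

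**Figure D3:**
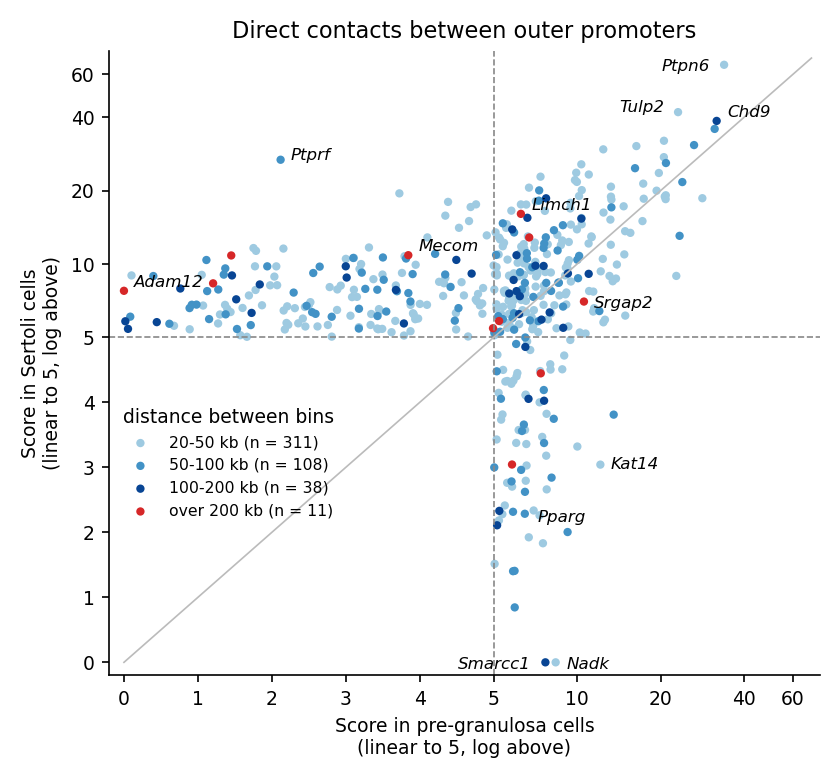
Scores of the 468 direct contacts between outer promoters in pre-granulosa cells (x axis) and Sertoli cells (y axis), each linear to 5 and logarithmic above; points are genes, coloured by the distance between the bins, dashed lines mark the threshold of 5 and the grey line marks equal scores. The 227 points in the upper right corner were called in both cell types, Ptprf lies far above the line and Kat14 far below it.

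Promoters inside the outermost pair were linked as well. Counting each pair of bins of a gene that start more than 20 kb apart, 621 genes (71.0%) had at least 1 contact among their own promoters. In the 180 genes with 4 or more bins, 557 of 1113 such pairs had a contact. Of the 1105 of these pairs that were up to 500 kb apart, 50.3% (47.4 to 53.3) had one, against 36.3% of pairs of different genes at the same distances. Over such pairs of all 875 genes the share was 53.8% (51.7 to 56.0) against 38.97%. Of the 180 genes with 4 or more bins, 35 had every pair linked and 16 had none. Tns1, an adhesion protein that binds actin, had 18 of 33 pairs linked, 16 in Sertoli cells against 10 in pre-granulosa cells, and Macf1, a linker of microtubules and actin, had 16 of 35, 13 and 10. Rgs12 (12 of 15), Spsb1 (11 of 12) and the F-BAR protein gene Srgap2 (10 of 12) were linked more fully. In Mical3 and Sorbs2, which encode actin regulators, 9 of 10 pairs were linked, 8 of them in both cell types. Tns1 and Macf1 with 9 bins each and Mcf2l and Ttn with 8 each had the most promoter bins, yet the outermost bins of these 4 genes had no listed contact with each other. In Mcf2l 9 of 22 pairs were linked, and in Ttn, the gene of the giant muscle protein titin, 3 of 19.

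The calls were spread unevenly over the promoters of these genes. In Tns1 the bin of Tns1-205 had 21 Sertoli and 17 pre-granulosa calls, and that of Tns1-207 had 11 and 11, whereas the other 7 had 1 to 9 calls in each cell type. In Macf1 the bin of Macf1-209 had 19 and 9, and the most upstream bin had 3 and 0. In Mcf2l, a guanine nucleotide exchange factor gene, Sertoli calls ran from 2 to 12 and pre-granulosa calls from 1 to 4, with fewer pre-granulosa calls in 6 of the 8 bins.

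Calls were present at both outer promoters in Sertoli cells in 703 genes (80.3%) and in pre-granulosa cells in 609 (69.6%). Pairs of different genes had calls at both bins in 84.2% in Sertoli and 77.5% in pre-granulosa cells, and in 86.1% and 81.0% at the same distances. In 477 genes (54.5%, 51.2 to 57.8) both promoters had a call in both cell types, a share that was 26.4% at a threshold of 7 and 27.9% with the original baits. It was below the 69.1% of pairs of different genes at the same distances (64.1% unweighted). The promoter with more calls was the same in both cell types in 422 of the 568 genes without a tie (74.3%, 70.5 to 77.7). Pairs of promoters of different genes at the same distances kept the same order in 75.9%, so this share is near the background.

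Both outer promoters had more Sertoli calls in 312 genes, both had more pre-granulosa calls in 83, and the promoters leaned to opposite cell types in 183, or 20.9% (18.3 to 23.7). The remaining 297 had equal calls at 1 or both promoters. Among pairs of different genes an opposite lean occurred in 20.1% at 20 to 50 kb, 21.2% at 50 to 100 kb, 22.7% at 100 to 200 kb and 22.9% at 200 to 500 kb, and in 20.7% when weighted to the same distances. At the same distances the share within genes was 23.2% (19.7 to 27.2) against 19.8% at 20 to 50 kb, 16.3% (11.9 to 21.8) against 21.2% at 50 to 100 kb, 18.3% (12.3 to 26.3) against 22.7% at 100 to 200 kb and 12 of 50 genes (14.3 to 37.4%) against 22.7% at 200 to 500 kb. The differences go in either direction, and the interval within genes holds the value for different genes in each of these 4 classes. In 155 of the 183 genes the lean of at least 1 promoter rested on a difference of 1 call, and in 28 it was at least 2 calls each way. At a threshold of 7 the promoters leaned to opposite sides in 10.5% of the genes. With the original baits, 316 genes had the same outer promoters. Of 58 that leaned to opposite sides with the extended baits, 20 did so in the same way there and 1 in the other way.

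The widest gaps were set by 1 busy promoter. In Dst, which encodes the cytoskeletal linker dystonin, the bin of Dst-211 had 0 Sertoli and 2 pre-granulosa calls, and the bin of Dst-208, 385.6 kb away, had 37 and 17. The 4 bins between them had 16 and 3, 17 and 5, 3 and 1, and 4 and 2. Sertoli calls were thus more numerous at 5 of the 6 bins of Dst, and the promoter with more pre-granulosa calls rests on scores of 6.09 and 5.38 in pre-granulosa cells. Armc9, a ciliary protein gene, had 0 and 2 calls at its upstream bin and 17 and 6 at its downstream bin, 36.4 kb away. Tpp2, a peptidase gene, had 2 and 3 against 23 and 11, Cngb1, a photoreceptor channel gene, 2 and 3 against 14 and 3 in a bin shared with Tepp, and Gigyf2, a translation regulator, 2 and 3 against 27 and 16. In Tpp2, Cngb1 and Gigyf2 the pre-granulosa lean is a single call. Thrap3, an RNA processing factor, differs from these in that both promoters were busy, with 23 Sertoli and 14 pre-granulosa calls at the bin of Thrap3-215 and 10 and 14 at the bin of Thrap3-208, which contacted each other at 15.0 and 17.2. With the original baits, Armc9, Tpp2 and Gigyf2 kept the opposite lean. Thrap3 lost it, with 20 and 13 calls at the first promoter and 7 and 5 at the second. Dst lost it too, with 1 Sertoli and 0 pre-granulosa calls at its quiet outer promoter and 23 and 4 at the busy one.

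**Figure D4:**
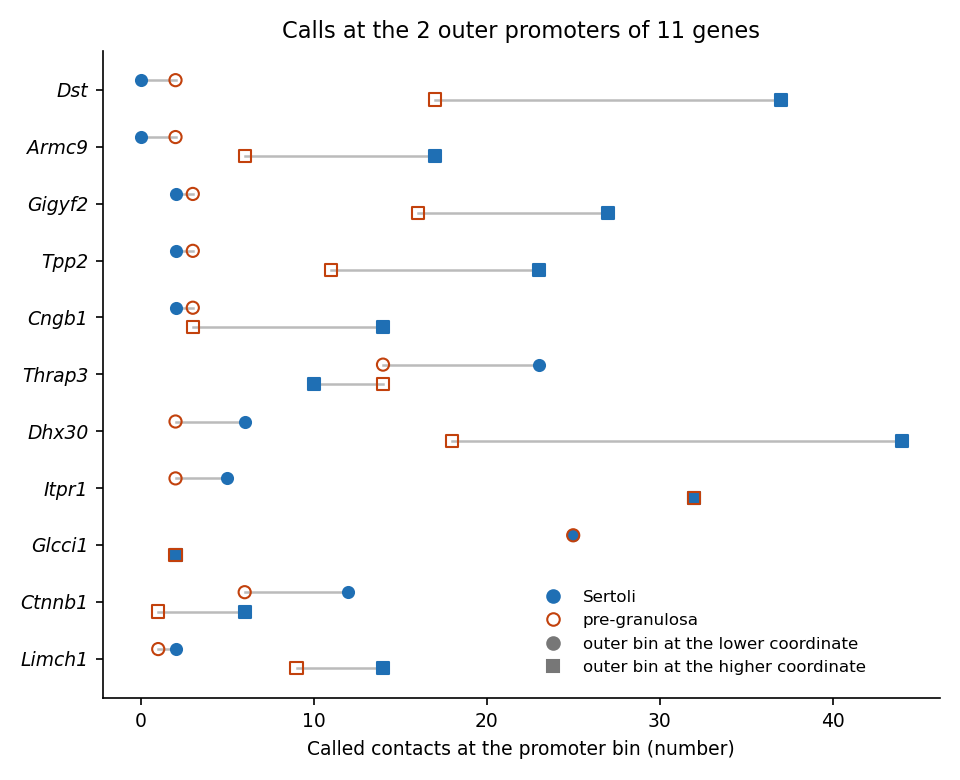
Called contacts (x axis, number) at the 2 outer promoter bins of 11 genes; filled blue symbols are Sertoli cells, open orange symbols are pre-granulosa cells, circles are the bin at the lower and squares the bin at the higher coordinate. With the extended baits shown, the promoters of the first 6 genes lean to opposite cell types. In Dst, Dhx30, Itpr1 and Glcci1 nearly all calls belong to 1 promoter.

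In 40 genes (4.57%, 3.37 to 6.17) calls at 1 outer promoter were made in Sertoli cells only and at the other in pre-granulosa cells only. Pairs of bins of different genes did so in 2.33% of cases at 20 to 500 kb and in 1.998% when weighted to the same distances, against 4.59% (3.39 to 6.19) of the 871 outer pairs up to 500 kb apart. In 13 of the 40 genes, among them Arntl, Creb5, Lgr6 and Pard3, a called contact joins the promoters themselves and was listed from 1 side only, so that it also touches the promoter without a call of its own in that cell type. Of the 404 pairs with no listed contact between the promoters, 27 remain (6.68%, 4.63 to 9.55), against 2.89% of such pairs of different genes at the same distances (2.54% unweighted). The 40 genes include Foxp1 (135.7 kb), Creb5 (281.4 kb), the clock gene Arntl (29.2 kb), the phosphodiesterase gene Pde11a (331.5 kb), the stem cell receptor gene Lgr6 (87.0 kb) and the polarity gene Pard3 (49.6 kb). They rest on few calls. Creb5 had 0 Sertoli calls and 1 pre-granulosa call at its upstream promoter, at a score of 8.99 (4.51 in Sertoli cells), and its downstream promoter had 1 Sertoli call, which is the contact between the promoters. Foxp1 likewise had 1 call at each outer promoter.

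The most unequal promoters had most of the calls of a gene. The helicase gene Dhx30 had 6 and 2 calls at its lower and 44 and 18 at its higher bin, 32.0 kb away and shared with Smarcc1, in Sertoli and pre-granulosa cells. Itpr1, the inositol trisphosphate receptor gene, had 5 and 2 against 32 and 32 over 206.8 kb. Glcci1 had 25 and 25 against 2 and 2 over 26.2 kb. The busy promoter was the same in both cell types in each of these 3 genes, but the balance between the cell types differed, with equal numbers at Itpr1 and Glcci1 and more Sertoli calls at Dhx30. Of the genes of gonad development and the supporting cells, 15 had a promoter bin and 1, Ctnnb1, had promoters over 20 kb apart. Ctnnb1 encodes beta-catenin, the transducer of WNT signals that promote the ovarian pathway. Its promoters, 22.9 kb apart, had 12 and 6 Sertoli calls and 6 and 1 pre-granulosa calls, no listed contact with each other and no bin called from both. Of the calls of Ctnnb1, 2 at the upstream and 1 at the downstream bin were made in both cell types.

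A common called bin was found in a smaller share of outer pairs than of pairs of different genes at 20 to 100 kb, and in a larger share at 200 to 500 kb. A bin called from both outer promoters was found in 463 genes (52.9%, 49.6 to 56.2), in Sertoli cells in 350 and in pre-granulosa cells in 259. Of the bins called from either outer promoter, 1007 of 7433 (13.55%) were called from both. Up to 500 kb this share was 13.56%, against 15.8% in pairs of different genes at the same distances (5.34% unweighted). The share of genes with such a bin was 30.3% at a threshold of 7. It was 25.7% for calls at 50 kb or more, and 16.2% where only bins with no bait name were counted. Pairs of different genes had a common bin in 71.6% of cases at 20 to 50 kb, 59.6% at 50 to 100 kb, 39.1% at 100 to 200 kb and 9.82% at 200 to 500 kb. At the same distances the share was 53.0% of 871 pairs within a gene and 62.2% of pairs of different genes. The share within genes was lower in the 3 classes up to 200 kb, at 61.3% against 72.4%, 50.2% against 60.4% and 33.9% (25.9 to 42.96) against 42.3%, where the interval holds both. From 200 to 500 kb it was higher, at 14 of 50 genes (17.5 to 41.7%) against 15.3%, with 5 of the 17 genes over 300 kb (29.4%, 13.3 to 53.1) against 6.61%. Over every pair of promoters of a gene, unweighted, the share at 100 to 200 kb was 47.1% (41.6 to 52.7) against 39.1%. The direction in that class thus depends on which pairs are counted. Over every pair the share stayed lower at 20 to 50 kb (67.0% against 71.6%) and at 50 to 100 kb (57.5% against 59.6%).

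The genes with the most common bins were Tulp2, with 18 in Sertoli cells against 11 in pre-granulosa cells, Gatad2b, a subunit of the NuRD complex, with 16 and 10, Ubap2l, a stress granule protein, with 14 and 10, Smarcc1 with 9 and 3, and Pnpla6, a phospholipase, with 8 and 2. The number was higher in Sertoli cells in each of these 5 genes. An outer bin of Tulp2, Ubap2l, Smarcc1 and Pnpla6 also carries the starts of another gene.

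Contacts of the outer promoters pointed towards each other more often than away. Of the calls nearer than the other promoter, whose own bin was left out, 2181 of 3812 (57.2%, 55.6 to 58.8) lay on its side. The share was 57.9% (56.1 to 59.6) in Sertoli cells against 56.2% (54.1 to 58.2) in pre-granulosa cells. More calls pointed inwards than outwards in 427 genes and fewer in 262. At distances of 0.75 to 1 of the separation the share was 75.1% and at 1 to 1.25 it was 72.3%, with the contact of the outer promoters themselves included, while it was 55.3% below 0.25 of the separation.

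The 2 sides differed in what the calls ended in. Of the 2181 inward calls, 665 (30.5%) ended in a further promoter of the same gene, 1469 (67.4%) in a bin with no bait name and 47 (2.15%) in a promoter of another gene. Of the 1631 outward calls, none ended in a promoter of the gene, which by construction lie inward, 1171 (71.8%) ended in a bin with no bait name and 460 (28.2%) in a promoter of another gene. Calls to bins with no bait name pointed inwards in 55.6% (53.7 to 57.5). The bins of each kind that were available on each side were not counted, so none of these shares is corrected for them. With all promoters of the gene left out as ends, but those of other genes kept, 1516 of 3147 calls (48.2%, 46.4 to 49.9) pointed inwards, so the direction of the whole count rests on which ends are counted.

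**Figure D5:**
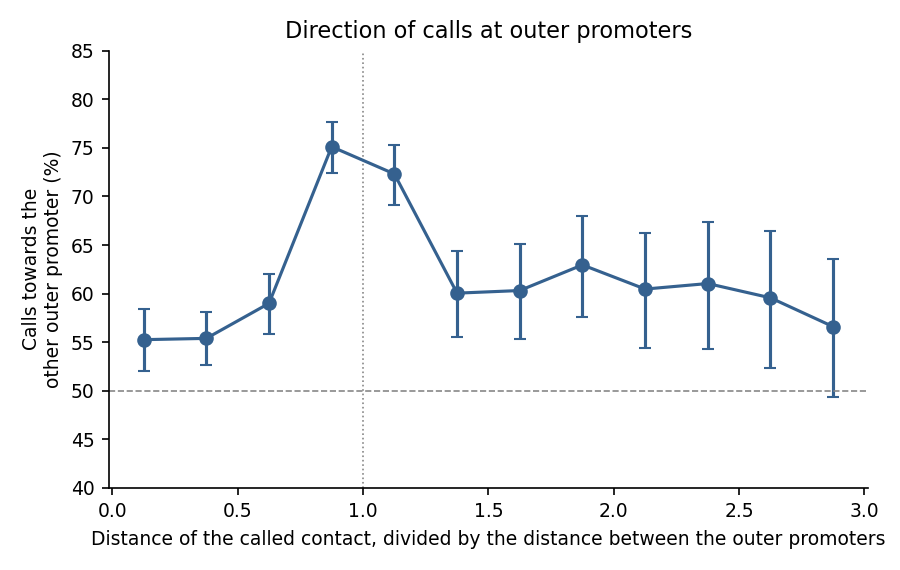
Share of called contacts of outer promoters that lie on the side of the other outer promoter (y axis, percent, 95% Wilson intervals) by the distance of the contact divided by the distance between the outer promoters (x axis); the dotted line marks the place of the other promoter and the dashed line 50%. The share is highest, at 75.1% and 72.3%, in the classes on either side of the other promoter, where the contact between the promoters is counted.

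With the strand taken from RefSeq for 747 genes, the downstream promoter had more calls. In Sertoli cells there were 3.35 calls per upstream and 4.37 per downstream outer promoter, and in pre-granulosa cells 2.47 and 2.77. The downstream promoter had more Sertoli calls in 359 genes and the upstream promoter in 250, and the corresponding numbers for pre-granulosa calls were 307 and 265. Calls of the upstream promoter lay downstream of it in 62.0% (60.3 to 63.6) and calls of the downstream promoter in 39.8% (38.3 to 41.3), against 49.9% (49.2 to 50.6) at genes with 1 promoter bin. Calls that end in promoters of the same gene are included in the first pair of values and lie on the inner side by construction. With them left out, the shares were 53.4% (51.5 to 55.3) and 46.4% (44.8 to 48.1). Of 154 genes with a strand and an opposite lean, the upstream promoter had more pre-granulosa calls in 89 and more Sertoli calls in 65.

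A RefSeq start of the gene lay in 753 of the 1750 outer bins, and in both outer bins of 93 genes. Among these 93, the upstream promoter window had a median of 17 CG and the downstream window 6, against 7 over all RefSeq promoter windows. The upstream window had more CG in 66 genes and the downstream window in 25. In Sertoli cells the promoter with fewer CG had 3.79 calls per bin against 3.08, with more calls in 48 genes and fewer in 29 (62.3% of the untied genes, 51.2 to 72.3). In pre-granulosa cells it had 2.65 against 2.42, with 39 and 33 genes (54.2%, 42.7 to 65.2), which shows no difference beyond the interval. Where that promoter was the downstream one it had 4.41 Sertoli calls against 3.45, and where it was the upstream one 2.16 against 2.08 over 25 genes. The CG count and the position in the gene therefore cannot be told apart here. The outer promoters had a listed contact in 52 of the 93 (55.9%).

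The 875 genes were 10.4% of all genes with a promoter bin, and the share differed between gene groups. Of the cytoskeleton and scaffold genes, 31 of 49 had promoters over 20 kb apart, with a median separation of 147.3 kb. Of the developmental transcription factors, 27 of 52 had them, with a median of 109.2 kb. The share was 36 of 106 for regulators of small GTPases, a list that also holds Rgs genes, and 39 of 195 for protein kinases and phosphatases. It was 24 of 138 for ion channels and neurotransmitter receptors and 21 of 133 for adhesion, matrix and axon guidance genes. For solute carriers, a list that also holds Abc genes, it was 20 of 159. It was lower at 12 of 178 zinc finger Zfp genes and 18 of 354 Gm and Rik genes, and lowest at 7 of 902 genes of tandem families. The lists were written with earlier results of these data known. They differ in separation, and the share with a contact falls with distance, so lists and all genes are not compared at like distances. Over all 875 genes, against which the counts of each list are to be read, the outer promoters had a contact in 468 (53.5%), 227 of these were called in both cell types, and 312 genes (35.7%) had more Sertoli calls at both promoters, 83 (9.49%) more pre-granulosa calls at both and 183 (20.9%) an opposite lean.

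In the developmental transcription factors, 16 of 27 (59.3%, against 53.5% of all) had a contact between the outer promoters, 7 of them called in both cell types, 11 had more Sertoli calls at both promoters, 1 more pre-granulosa calls at both and 2 an opposite lean. The 2 shares with a contact are not matched for distance, since the median separation was 109.2 kb in this list and 44.3 kb over all. Nfix, a nuclear factor I gene, had 18 and 7 calls at its upstream and 6 and 4 at its downstream bin, in Sertoli and pre-granulosa cells, and the bins contacted each other at 8.96 and 5.68. Nr6a1, an orphan nuclear receptor gene, had 16 and 15 calls at its upstream bin and 2 and 2 at the downstream bin 141.5 kb away, with no contact between them. Tcf12 had 10 and 10 calls at its upstream bin and 0 and 5 at its downstream bin. Elf2, an ETS factor gene, had 4 and 2 calls at its upstream and 11 and 9 at its downstream bin, which contacted each other at 4.90 and 6.03, a call in pre-granulosa cells only.

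In the cytoskeleton and scaffold genes, 16 of 31 (51.6%, against 53.5% of all) had a contact between the outer promoters, 14 had more Sertoli calls at both promoters, 3 more pre-granulosa calls at both and 6 an opposite lean. Here too the shares with a contact are not matched for distance, with a median separation of 147.3 kb against 44.3 kb over all. Besides Dst, the adducin gene Add1 had 14 and 9 calls at its upstream and 12 and 11 at its downstream bin, with 5 bins called from both promoters in each cell type. The tubulin binder Map4 had 2 and 1 against 20 and 11 over 147.3 kb, and the centrosomal gene Tacc2 had 6 and 3 against 17 and 4 over 151.4 kb. The downstream promoter was the busier in Map4 and Tacc2 in both cell types.

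In the list of small GTPase regulators, which also holds Rgs genes, 15 of 36 had a contact between the outer promoters and 8 an opposite lean. Rgs12 had 7 and 5 calls upstream and 20 and 8 downstream, with a contact at 14.4 and 8.89. Arhgap29 had 9 and 11 upstream and 1 and 2 downstream. Among kinases and phosphatases the numbers were 19 and 12 of 39. Wnk1, a kinase of ion transport with a kidney-specific internal promoter, had 15 Sertoli and 2 pre-granulosa calls at its upstream bin and 30 and 22 at its downstream bin, 102.8 kb away, and no listed contact between them. With the original baits the order was reversed, with 12 and 4 calls at the upstream and 1 and 0 at the downstream promoter. Inside the gene, the bin of Wnk1-207 contacted the downstream bin over 21.3 kb at 51.9 in Sertoli and 25.1 in pre-granulosa cells. The tyrosine kinase gene Src leaned to opposite sides, with 4 and 7 calls at its upstream and 9 and 5 at its downstream bin. With the original baits Src had 3 and 3 calls upstream and 5 and 3 downstream, which is no opposite lean.

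Among the channels and receptors 15 of 24 had a contact between the outer promoters, 10 of them called in both cell types. Trpm7, a channel with a kinase domain, had a contact at 6.08 in Sertoli cells against 0.0852 in pre-granulosa cells, and the potassium channel gene Kcnh2 one at 7.51 and 9.08. Of the 20 solute carriers and transporters, 10 had one. It was 18.6 and 28.3 at the urate transporter gene Slc2a9, 13.6 and 14.9 at the glycine transporter gene Slc6a9 and 20.1 and 7.30 at Abcc8, a subunit of potassium channels. Slc2a9 had the widest excess in pre-granulosa cells among these 3. Abca4, the retinal lipid transporter gene, had 5 Sertoli and 12 pre-granulosa calls at its upstream bin and 3 and 4 at its downstream bin, with no listed contact between them.

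Among the adhesion, matrix and axon guidance genes 10 of 21 had a contact and 4 an opposite lean. The integrin gene Itgad had 2 and 0 calls at its lower and 32 and 14 at its higher bin, which also carries the start of Cox6a2. The plexin gene Plxnd1 had a contact at 3.73 in Sertoli cells against 5.32 in pre-granulosa cells. Of the 12 Zfp genes, 3 had a contact between outer promoters, called in both cell types in none. Zfp385b, with outer bins 203.0 kb apart, had 4 Sertoli and 12 pre-granulosa calls at the downstream bin and 0 and 1 at the upstream bin, so that both leaned to pre-granulosa cells. Of the 18 Gm and Rik genes, 10 had a contact and none an opposite lean, and 2 of the 7 genes of tandem families had a contact.

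The 4 genes with outer promoters over 500 kb apart were Dlg2, Ank2, Schip1 and Mecom. Dlg2, a synaptic scaffold gene whose outer bins were 1235 kb apart, the upstream one shared with Tmem126b, had 1 or 2 calls per bin in either cell type, and the single listed contact among its promoters joined Dlg2-220 and Dlg2-203, 39.0 kb apart, at 4.43 and 6.96. Ank2, an ankyrin gene with 539.8 kb, had its neighbouring bins of Ank2-206 and Ank2-227 linked at 7.10 and 9.78. In Schip1 the most upstream bin contacted that of Schip1-205 over 405.7 kb at 8.43 in Sertoli cells against 1.66 in pre-granulosa cells from the Schip1-205 side, and at 5.46 and 0.260 from the other. St6galnac3, a sialyltransferase gene with 499.1 kb, had 1 call at each outer bin. The outer bins of these 5 genes had at most 2 calls in either cell type, below the mean of 3.89 Sertoli and 2.67 pre-granulosa calls over the 2467 bins.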

How the data were processed

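The authors deposited CHiCAGO scores, 1 for each cell type, for contacts of promoter bins with other bins (median length 5.3 kb), in a table with extended baits and a table with original baits, on mm10 per the submitters' processing notes. The score column of a cell type stands for all its libraries per the labels. The aligner, the CHiCAGO version, filters and pooling are not given in the sources used here. No listed contact is under 5 in both cell types, and the shortest cis distance is 10.0 kb.

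The extended table was used, with cis contacts of chromosomes 1 to 9. A contact between promoters took the higher score of its 2 sides. Gene lengths and strands and the promoter sequences came from RefSeq (GRCm38.p6), matched by symbol. Python 3.11.15, pandas 2.3.3, scipy 1.17.1 and matplotlib 3.10.9 were used, and the code was tested on simulated data. With 1 score for each cell type no test was possible, and shares carry 95% Wilson intervals. Pairs of different genes were weighted to the distances of the pairs within genes.

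Genes and lists were chosen with earlier results of these data known. By rule, the text names the genes highest by direct score (6), by its difference between cell types (5 each way), by opposite lean (6), separation (5), common bins (5), number of bins (3, ties by symbol) and difference in calls (5), those nearest 20 kb, the gonad list and busy members of each other list, of which some are not reported here. Other genes were chosen after their values were seen, namely the remaining direct contacts over 200 kb, the genes with many linked promoters or with calls in different cell types, Pparg, Mitf and Ttn. Alternatives tried were the threshold, the bait table, distance limits, equal call numbers, baits of 1 symbol, the kind of other end, the other cell type's score and every pair of promoters. The use of all own promoters as ends, of a further contact and of RefSeq starts, the narrow distance classes, and the count of genes called in different cell types without a contact between the promoters, were added after the data were seen.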

Additional observations from a re-analysis of the deposited data

Results flagged for a closer look

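Contacts with other chromosomes were outside the comparisons above. At the promoter bins of the 875 genes 31 such contacts were listed, with 30 calls in pre-granulosa and 2 in Sertoli cells, whereas cis calls were more numerous in Sertoli cells. The other 8596 promoter bins had 137 such contacts, with 123 calls in pre-granulosa and 14 in Sertoli cells. They were singled out because they are a signal in data that the comparisons do not use, and with 1 score per cell type they have no replicate check. The bin of Ubap2-206 had the single contact called in both cell types, at 24.9 in Sertoli and 14.04 in pre-granulosa cells, and that of Nktr-207 had the single one called in Sertoli cells only, at 6.78. In the other 29 contacts the Sertoli score was listed at 0.00. The bin of Tcf12-207 had 3 of them, each at 5.26 in pre-granulosa cells. The cause was not tested.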

How the results depend on the processing

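No paired analysis was possible because each cell type has 1 score column for all its libraries, and for the same reason no library could be left out. At a threshold of 7 Sertoli calls outnumbered pre-granulosa calls by a ratio of 1.62, the share of contacts called in both cell types was 31.5%, the genes with calls at both promoters in both cell types 26.4%, those with an opposite lean 10.5%, direct contacts 35.2% and genes with a common bin 30.3%. At a threshold of 10 these values were 1.77, 30.7%, 8.91%, 4.23%, 17.7% and 13.49%. With original baits they were 2.02, 21.4%, 27.9%, 24.7%, 0.213% (1 of 470 genes) and 41.7%, the inward share was 55.3% and the upstream share of Sertoli calls 41.1%. The direct contacts given above were read with the extended baits, and the 470 genes found with the original baits are not the same set of genes. For promoters over 50 kb apart, 32.1% of contacts were called in both cell types, 45.3% of genes had calls at both promoters, 18.0% an opposite lean, 40.9% a direct contact and 42.2% a common bin, with an upstream share of 40.4%. With calls at 50 kb or more, the ratio was 1.68, the shared contacts 24.4%, both promoters 19.9%, opposite lean 12.1%, direct contacts 17.9%, common bins 25.7%, the inward share 64.8% and the upstream share 46.3%. With equal numbers of calls (a Sertoli threshold of 6.05), the ratio was 1.04, the shared contacts 34.5%, both promoters 45.7%, direct contacts 49.1% and common bins 45.0%. With other ends that carry no bait name, the ratio was 1.58, the shared contacts 26.6%, both promoters 14.1%, opposite lean 7.43%, common bins 16.2% and the upstream share 38.1%, and direct contacts could not be counted. A further setting kept contacts called in 1 cell type only where the other cell type scored under 1. The 4032 shared contacts were then 76.4% of the 5279 that remained, instead of 33.2% of 12146. This rule removes unshared contacts alone, so the rise is built into it. Over every pair of promoters more than 20 kb apart, calls at both were 59.9%, common bins 59.5% and the inward share 55.2%. With all promoters of the gene left out as ends, the inward share was 48.2%. A change of direction could be seen only for the call ratio, the inward share and the upstream share, and this was the only one. For the other results, the shares of pairs of different genes were not recomputed at other thresholds or with the original baits. Whether their difference from that background holds there was not tested. With a further listed contact at both bins, direct contacts were 47.1%, and the upstream share was 40.8% with baits of 1 symbol and 44.7% with a RefSeq start in both bins. Among pairs with no listed contact between the promoters, 6.68% were called in different cell types. The unknown depth limits every count of calls, since a score rises with depth.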
